A study of Mus musculus with 10 samples.

Results

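Fibroblast growth factors (FGF) and hepatocyte growth factor (HGF) are secreted by mesenchymal cells, and the genes described here are 5 FGF ligands (Fgf1, Fgf2, Fgf7, Fgf10 and Fgf18), 3 FGF receptors (Fgfr1, Fgfr2 and Fgfr3), the ligand Hgf and its receptor Met. They were listed by name, and all 10 were measured among 18193 genes on Affymetrix Mouse430_2 arrays, where a probe set of short oligonucleotides reads each transcript. Where several probe sets were assigned to a gene alone, the brightest on average was used. The 10 arrays held total RNA from cultured mouse lung fibroblasts, 5 of normal fibroblasts and 5 of carcinoma-associated fibroblasts (CAF), a name for fibroblasts of a tumour. Cells of both groups were isolated from lungs, expanded for 10 to 14 days in DMEM with 10% serum and antibiotics, replated and grown overnight. The strain, genotype, age and tumour model are not given in the sources used here. The array titles call the samples biological replicates and do not say whether each was a separate mouse, so the spread between arrays may be partly technical. Values are log2 expression.

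FGFs bind tyrosine kinase receptors together with heparan sulfate on the cell surface, and the receptors signal through the adaptor FRS2 to the RAS-MAPK cascade. In the developing lung, Fgf10 made by the mesenchyme drives branching of the epithelium through a splice form of Fgfr2, and Fgf7 acts on the same receptor form. HGF, made as an inactive precursor by fibroblasts and other stromal cells, is cut to its active form by serine proteases and binds Met, which is best known on epithelial cells. Tumour fibroblasts are known as a source of HGF for carcinoma cells.

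The arrays of a group differed from each other. Across all probe sets, 4 arrays correlated best with an array of the other group, 3 normal and 1 CAF. Normal replicate 2 was closest to CAF replicate 4 (Pearson r = 0.978) with a median r of 0.964 with the other normal arrays. Label codes of the arrays begin with vs for normal replicates 1 to 3 and with ls for all others, and the labels do not explain these prefixes. Fibroblast markers (10 of 10 measured, with Col1a2, Vim and Fn1 brightest) had a mean between 12.70 and 14.53 on normal and between 12.67 and 14.05 on CAF arrays. The mean of 7 mesothelial markers ran from 5.95 to 10.20 on the normal arrays and from 6.83 to 9.02 in CAF. That of 13 macrophage and monocyte markers, of which Lyz2, Tyrobp and C1qb were brightest, ran from 9.65 to 13.20 on the normal arrays and from 10.61 to 13.11 in CAF. Both of the lowest means were those of normal replicate 2, which also had the highest fibroblast mean.

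None of the 10 genes passed the test between CAF and normal fibroblasts (limma, Benjamini-Hochberg adjusted p under 0.05 over all genes), while 0.753% of all genes did (0.561% higher and 0.192% lower). The epithelial growth factors Fgf7, Fgf10 and Hgf had higher means in CAF, by 1.47, 1.26 and 1.11 on the log2 scale, and Met and Fgfr2 had lower means, by -1.05 and -0.61. The intervals of Fgf7 and Fgf10 began just above 0 and the others included 0. In 10 of 10 genes the values of the groups overlapped. Over all genes, 7.16% had groups that did not overlap (2.97% higher and 4.19% lower). At an unadjusted p under 0.05, 2 of the 10 genes passed, Fgf10 and Fgf7, against 22.3% of all genes, and the exact permutation test gave 0 of 10. The count of calls over all genes was 102 higher and 35 lower, and 43 higher and 49 lower after a further quantile normalisation. In the deposited values, array medians ran from 6.76 to 6.80 in normal and from 6.73 to 6.74 in CAF. Array SDs ran from 2.34 to 2.39 in normal and from 2.41 to 2.44 in CAF. Neither measure overlapped between the groups, and the cause was not tested. The median difference of the 10 genes was 0.30, beside -0.04 over all genes. Set against the vs normal arrays alone, CAF gave 1.57% of all genes called (1.18% higher and 0.385% lower), and against the ls normal arrays limma called 0 genes. None of the 10 genes was called in either.

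**Figure D1:**
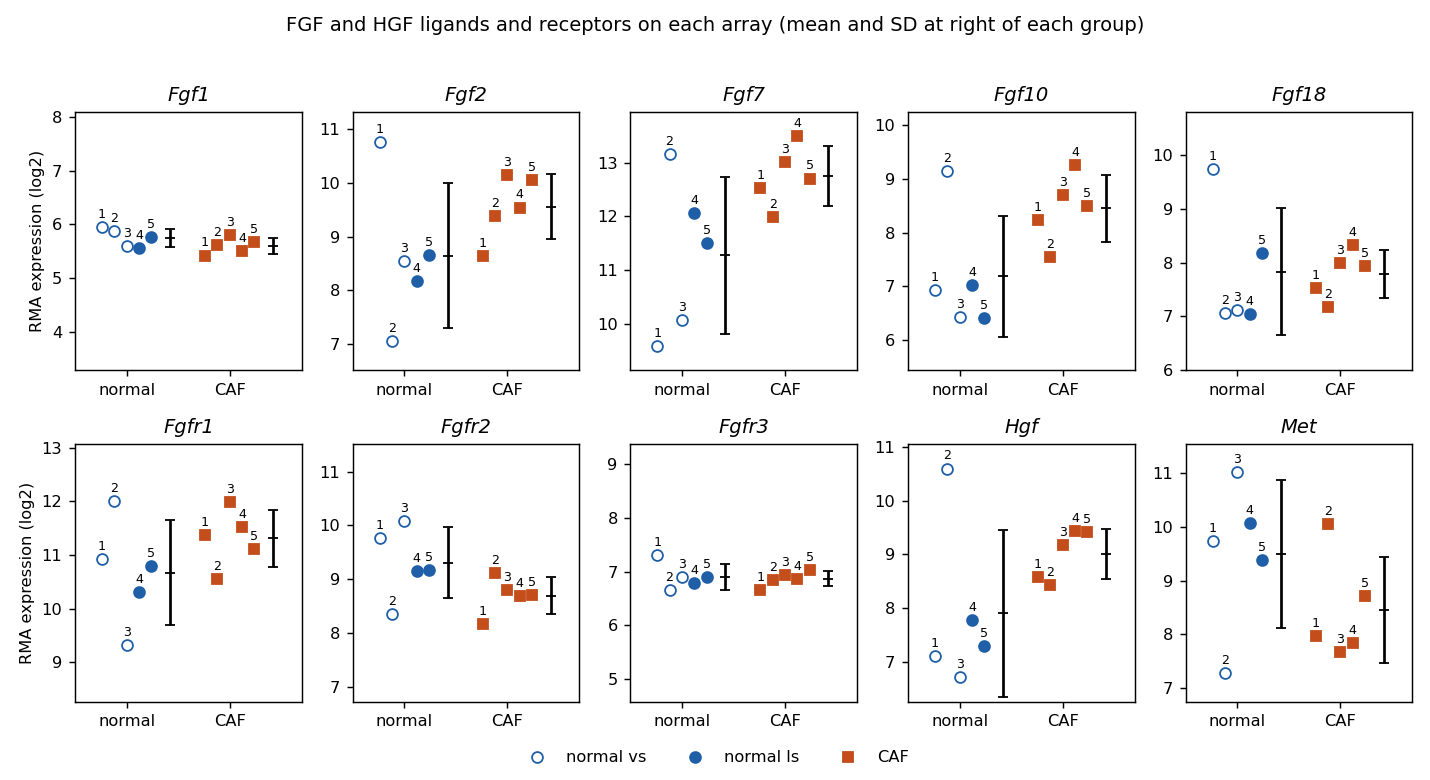
Expression of the 10 genes on each array, with the group on the x axis and RMA log2 expression on the y axis. Open circles are vs normal arrays, filled circles ls normal arrays, squares CAF arrays, numbers the replicates, and the bars at the right of each group the mean ± SD (n = 5). Every panel spans the same number of log2 units. Normal replicate 2 lies with or above the CAF arrays for Fgf7, Fgf10, Fgfr1 and Hgf and at or below most of them for Fgf2, Fgfr2 and Met.

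The ligands that fibroblasts pass to epithelium come first. Fgf7, also called keratinocyte growth factor, read 9.58, 13.16, 10.06, 12.06 and 11.50 on normal replicates 1 to 5 and 12.53, 11.98, 13.00, 13.49 and 12.70 on CAF replicates 1 to 5. Normal replicates 1 and 3 were the low arrays, and normal replicate 2 was within the range of CAF. The group means were 11.27 ± 1.46 and 12.74 ± 0.56 (SD, n = 5 each), a difference of 1.47 ± 0.64 (SE; 2.77-fold; 95% interval 0.05 to 2.89; limma adjusted p = 0.210; higher in CAF). The other probe set of Fgf7 gave 1.46 ± 0.65. CAF minus ls normal was 0.96 ± 0.85, and CAF minus vs normal was 1.81 ± 0.74.

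Fgf10, the branching signal of lung mesenchyme, was read by 1 probe set. It read 6.93, 9.14, 6.42, 7.03 and 6.41 on normal replicates 1 to 5 and 8.23, 7.55, 8.70, 9.26 and 8.50 on CAF replicates 1 to 5. All CAF arrays were above 4 of the normal arrays, and normal replicate 2 was above 4 of the CAF arrays. The means were 7.19 ± 1.13 in normal and 8.45 ± 0.63 in CAF, with a difference of 1.26 ± 0.52 (95% interval 0.09 to 2.43; limma adjusted p = 0.196). CAF minus ls normal was 1.73 ± 0.69, and CAF minus vs normal 0.95 ± 0.60.

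Hgf, the ligand of Met, read 7.12, 10.60, 6.72, 7.78 and 7.30 on normal replicates 1 to 5 and 8.58, 8.44, 9.18, 9.45 and 9.41 on CAF replicates 1 to 5. Normal replicate 2 had the highest value of all arrays, and the other normal arrays all lay below the lowest CAF array. The means were 7.90 ± 1.55 and 9.01 ± 0.47, a difference of 1.11 ± 0.66 (2.16-fold; 95% interval -0.36 to 2.58; limma adjusted p = 0.344). The other probe sets of Hgf gave 1.02 ± 0.61 and 0.44 ± 0.39, with normal replicate 2 highest on both. The difference was 1.47 ± 0.90 when only ls normal arrays were used and 0.86 ± 0.78 with only vs ones.

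Leaving out normal replicate 2 changed the calls of Fgf10 and Hgf. Without it, Hgf differed by 1.78 ± 0.28 (limma adjusted p = 0.0411) and Fgf10 by 1.75 ± 0.31 (limma adjusted p = 0.0499). These were 2 of 10 genes called higher, against 0.781% of all genes in that fit. The 2 genes also varied together, so this count is not a test of the list. Normal replicate 2 was the highest normal array for both, so leaving it out widens their differences by construction. Fgf7 then differed by 1.94 ± 0.52 (limma adjusted p = 0.0876) and did not pass. Leaving out each of the other 9 arrays in turn called 0 of the 10 genes. With array weights, which give arrays that fit their group poorly less influence, Fgf10 passed (1.67 ± 0.39, limma adjusted p = 0.0382) and the other 9 genes did not, in a fit that called 5.4% of all genes higher. Normal replicate 2 had the lowest weight, 0.331, so this setting is close to leaving that array out.

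**Figure D2:**
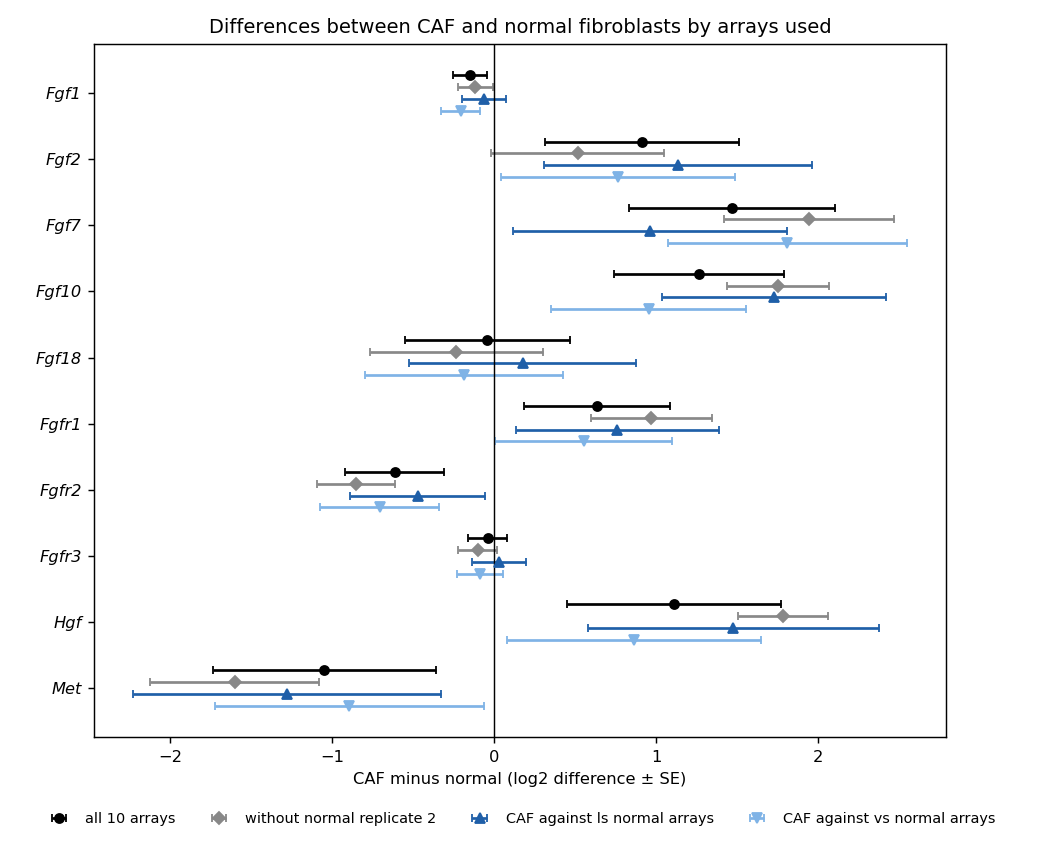
Difference between CAF and normal fibroblasts for each gene on the x axis (log2, CAF minus normal, ± SE), with the genes on the y axis. Circles use all 10 arrays, diamonds leave out normal replicate 2, and triangles set CAF against the ls (up) or vs (down) normal arrays alone. Fgf7, Fgf10, Hgf, Fgf2 and Fgfr1 lie above 0 and Fgfr2 and Met below it in every setting drawn, while Fgf18 and Fgfr3 change sign.

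Fgf7, Fgf10 and Hgf varied together over the arrays, and the 250 bases before their annotated start sites are shown because of that (RefSeq, GRCm38.p6, plus strand, 5′ to 3′). Capitals mark matches to the GC box GGGCGG and to the forkhead motif GTAAACA, on either strand. The windows are chr2:126034408-126034657 for Fgf7, chr13:118714449-118714698 for Fgf10 and chr5:16553245-16553494 for the first of the annotated starts of Hgf.
Fgf7: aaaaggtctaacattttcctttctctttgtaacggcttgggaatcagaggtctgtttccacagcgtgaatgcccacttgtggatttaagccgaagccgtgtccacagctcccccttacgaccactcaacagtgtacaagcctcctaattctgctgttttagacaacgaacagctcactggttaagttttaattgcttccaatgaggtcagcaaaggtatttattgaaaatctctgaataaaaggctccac
Fgf10: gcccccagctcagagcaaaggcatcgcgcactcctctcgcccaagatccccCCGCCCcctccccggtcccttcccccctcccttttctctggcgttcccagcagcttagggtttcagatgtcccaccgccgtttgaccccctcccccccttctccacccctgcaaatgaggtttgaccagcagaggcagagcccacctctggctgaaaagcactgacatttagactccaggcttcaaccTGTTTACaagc
Hgf: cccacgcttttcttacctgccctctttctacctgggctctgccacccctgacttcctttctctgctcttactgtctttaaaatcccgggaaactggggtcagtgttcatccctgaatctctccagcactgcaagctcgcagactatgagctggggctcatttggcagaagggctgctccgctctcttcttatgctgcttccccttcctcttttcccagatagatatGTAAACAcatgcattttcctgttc

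The forkhead motif began 11 bases before the start of Fgf10 and 24 bases before the first start of Hgf. The Fgf7 window and that of the other Hgf start held none, and 2 of the 10 windows held it in all. It was found in 3.17% of 32851 promoter windows of the same length. This motif was chosen after the sequences had been read. GC boxes stood in 32.7% of all windows, and in 6 of the 10 windows that 8 of the genes have in the table. The letters TATAAA (12.4% of windows), TGACGTCA (the cAMP response element, 1.55%) and GGAATG (the TEAD motif, 12.6%) were in 0 of those 10 windows, and TGANTCA (AP-1, 6.75%) was in 1, that of Met. Fgf1 and Fgfr1 were not matched. The Fgf7 window was 43.6% G or C, that of Hgf 50.8% and that of Fgf10 61.2%, beside a median of 52.4% over all windows.

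Of the ligands with broader targets, Fgf2, basic FGF, read 10.77, 7.06, 8.55, 8.18 and 8.67 on normal replicates 1 to 5 and 8.64, 9.39, 10.14, 9.54 and 10.06 on CAF replicates 1 to 5. Normal replicate 1 had the highest value of all arrays and normal replicate 2 the lowest, so the normal group spanned the whole CAF range. The means were 8.64 ± 1.35 and 9.55 ± 0.60, a difference of 0.91 ± 0.60 (1.88-fold; 95% interval -0.43 to 2.25; limma adjusted p = 0.390). With only ls normal arrays the difference was 1.13 ± 0.83, and with only vs ones 0.76 ± 0.72. It was 1.44 ± 0.40 without normal replicate 1 and 0.51 ± 0.53 without normal replicate 2. Fgf2 had 1 probe set, and in the gene annotation it overlaps Nudt6, its known antisense partner.

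Fgf18, a ligand known from cartilage and lung development, read 9.75, 7.07, 7.12, 7.05 and 8.18 on normal replicates 1 to 5 and 7.52, 7.18, 8.0, 8.32 and 7.93 on CAF replicates 1 to 5. Normal replicate 1 was again the highest array. The means were 7.83 ± 1.17 and 7.79 ± 0.44, a difference of -0.04 ± 0.51 (95% interval -1.18 to 1.10; limma adjusted p = 0.967), an interval that spans changes past 1 log2 unit either way. Fgf1, acidic FGF, which binds all FGF receptors, lay between 5.56 and 5.95 on normal and between 5.42 and 5.80 on CAF arrays, with a difference of -0.15 ± 0.10 (95% interval -0.38 to 0.08; limma adjusted p = 0.408), or -0.10 ± 0.10 without normal replicate 1. Its values were low on a scale without detection calls, so they cannot be told from background. Its mean was under the median of all gene means, 8.11. Fgf10, Fgf18 and Fgfr3 also had means under that median, where differences may be compressed. The other probe sets of Fgf1 gave 0.16 ± 0.15 and -0.12 ± 0.15.

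Among the receptors, Fgfr1, the main FGF receptor of mesenchymal cells, read 10.92, 12.01, 9.33, 10.31 and 10.79 on normal replicates 1 to 5 and 11.37, 10.55, 11.99, 11.52 and 11.11 on CAF replicates 1 to 5. The highest and the lowest value were both on normal arrays, replicates 2 and 3. The means were 10.67 ± 0.98 and 11.31 ± 0.53, a difference of 0.63 ± 0.45 (1.55-fold; 95% interval -0.38 to 1.65; limma adjusted p = 0.428). The other probe sets gave 0.60 ± 0.45 and 0.14 ± 0.17. With only ls normal arrays it was 0.76 ± 0.63, and with only vs ones 0.55 ± 0.55. Leaving out normal replicate 3 gave 0.30 ± 0.37 and leaving out normal replicate 2 gave 0.97 ± 0.37.

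Fgfr2, whose epithelial splice form receives Fgf7 and Fgf10, read 9.77, 8.36, 10.08, 9.15 and 9.18 on normal replicates 1 to 5 and 8.16, 9.11, 8.79, 8.68 and 8.71 on CAF replicates 1 to 5. All normal arrays except replicate 2 lay above all CAF arrays. The means were 9.31 ± 0.66 and 8.69 ± 0.34, a difference of -0.61 ± 0.30 (1.53-fold lower in CAF; 95% interval -1.30 to 0.07; limma adjusted p = 0.266). Which splice forms of Fgfr2 the probe sets read was not tested. Of its dimmer probe sets, 1 gave -0.58 ± 0.37. The dimmest was between 6.56 and 7.03 on normal and between 6.22 and 6.44 on CAF arrays, with no overlap, and differed by -0.39 ± 0.09 (limma adjusted p = 0.0626 when all probe sets are tested singly). At the brightest probe set the difference was -0.47 ± 0.42 with only ls normal arrays and -0.71 ± 0.37 with only vs ones.

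Fgfr3, a receptor best known from cartilage, lay between 6.66 and 7.31 on normal and between 6.66 and 7.04 on CAF arrays. It differed by -0.04 ± 0.12 (95% interval -0.31 to 0.23; limma adjusted p = 0.863), and by -0.00031 ± 0.081 at its other probe set.

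Met read 9.74, 7.28, 11.02, 10.08 and 9.38 on normal replicates 1 to 5 and 7.97, 10.06, 7.68, 7.83 and 8.72 on CAF replicates 1 to 5. Normal replicate 2 had the lowest value of all arrays, and CAF replicate 2 was among the high ones, inside the range of the other normal arrays. The means were 9.50 ± 1.38 and 8.45 ± 0.98, a difference of -1.05 ± 0.69 (2.07-fold lower in CAF; 95% interval -2.59 to 0.49; limma adjusted p = 0.390). Its other probe set gave -0.92 ± 0.51. Setting CAF against the ls normal arrays gave -1.28 ± 0.95, and against the vs ones -0.89 ± 0.83. Without normal replicate 2 the difference was -1.60 ± 0.52 (limma adjusted p = 0.124), and without normal replicate 3 it was -0.67 ± 0.67 (limma adjusted p = 0.604).

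The 10 genes also differed between arrays of 1 group. The SD was larger in the normal group than in CAF for 10 of 10 genes, against 71.1% of all genes. Between the vs and the ls normal arrays, limma called 0 genes of all, and the smallest adjusted p among the 10 genes was 0.773, for Fgf10. Of the 11 other probe sets of these genes, 10 had the sign of the brightest probe set.

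Fgf7, Fgf10, Hgf and Fgfr1 were high on the same arrays, which were those low in Met and Fgfr2. Relations were computed over 36 pairs, 28 between the 8 genes with an SD over all arrays of at least 0.5 and 8 between those genes and the mesothelial mean, after the values had been seen, with 100000 permutations per pair. A total of 16 of the 28 gene pairs passed (Benjamini-Hochberg adjusted permutation p under 0.05 over the 36), and they share arrays, so they are not independent. They were the 15 pairs among those 6 genes, and Fgf2 with Fgf18. The share of other gene pairs that would pass the same test was not computed, so the count does not set these genes apart. The 3 nearest profiles of Fgf7, Fgf10 and Hgf, given below, were all of genes outside the list. With the 2 farthest arrays left out, 5 of the 15 had an unadjusted permutation p over 0.05, namely Fgf7 with Fgfr2 (0.0896), Hgf with Fgfr2 (0.0712), Fgfr1 with Fgfr2 (0.183), Fgfr1 with Hgf (0.0968) and Hgf with Met. Among the ls arrays the same pairs missed it (exact permutation p of 0.183, 0.206, 0.135, 0.0871 and 0.102), and so did Fgf10 with Fgfr2 (0.111). Fgfr1 and Met ran in opposite directions (r = -0.956, permutation p = 2e-05, adjusted 0.00072; rho = -0.988, p = 2e-05). Without normal replicates 2 and 3, the arrays farthest from the median of Fgfr1, r was -0.940. Among the 7 ls arrays it was -0.962, and the 3 vs arrays are too few for a value. Among the 5 CAF arrays, the order of Met was exactly the reverse of that of Fgfr1.

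Fgf10 and Hgf varied together (r = 0.945, permutation p = 7e-05, adjusted 0.0013; rho = 0.939, p = 0.00026), with r = 0.919 without normal replicates 3 and 5 and 0.966 among the ls arrays. For Fgf7 and Hgf r was 0.872 (permutation p = 0.00036, adjusted 0.0043; rho = 0.952, p = 0.00012), 0.868 without normal replicates 1 and 3 and 0.907 among the ls arrays. Fgf7 and Fgf10 had r = 0.847 (permutation p = 0.001, adjusted 0.0076; rho = 0.939, p = 0.00019), and 0.975 without normal replicates 1 and 3. As deviations from the group means these 3 pairs had r of 0.940, 0.834 and 0.760, so the relation was also present within the groups.

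The receptors Fgfr2 and Met went the same way (r = 0.863, permutation p = 0.00091, adjusted 0.0076; rho = 0.782, p = 0.01), with r = 0.814 without normal replicates 1 and 3 and 0.764 among the ls arrays. Ligand and receptor were opposed for Hgf and Met (r = -0.852, permutation p = 0.0025, adjusted 0.0078; rho = -0.842, p = 0.0035). Without normal replicates 2 and 3 that r was -0.718 (permutation p = 0.062) and among the ls arrays -0.685 (permutation p = 0.1), neither of which passed. Fgf2 and Fgf18 shared the high normal replicate 1 (r = 0.748, permutation p = 0.012, adjusted 0.022; rho = 0.830, p = 0.0046). Without normal replicates 1 and 2 their r was 0.555 (permutation p = 0.15) and among the ls arrays 0.486 (exact permutation p = 0.262). Without normal replicate 2 alone it was 0.756, and as deviations from the group means 0.846.

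**Figure D3:**
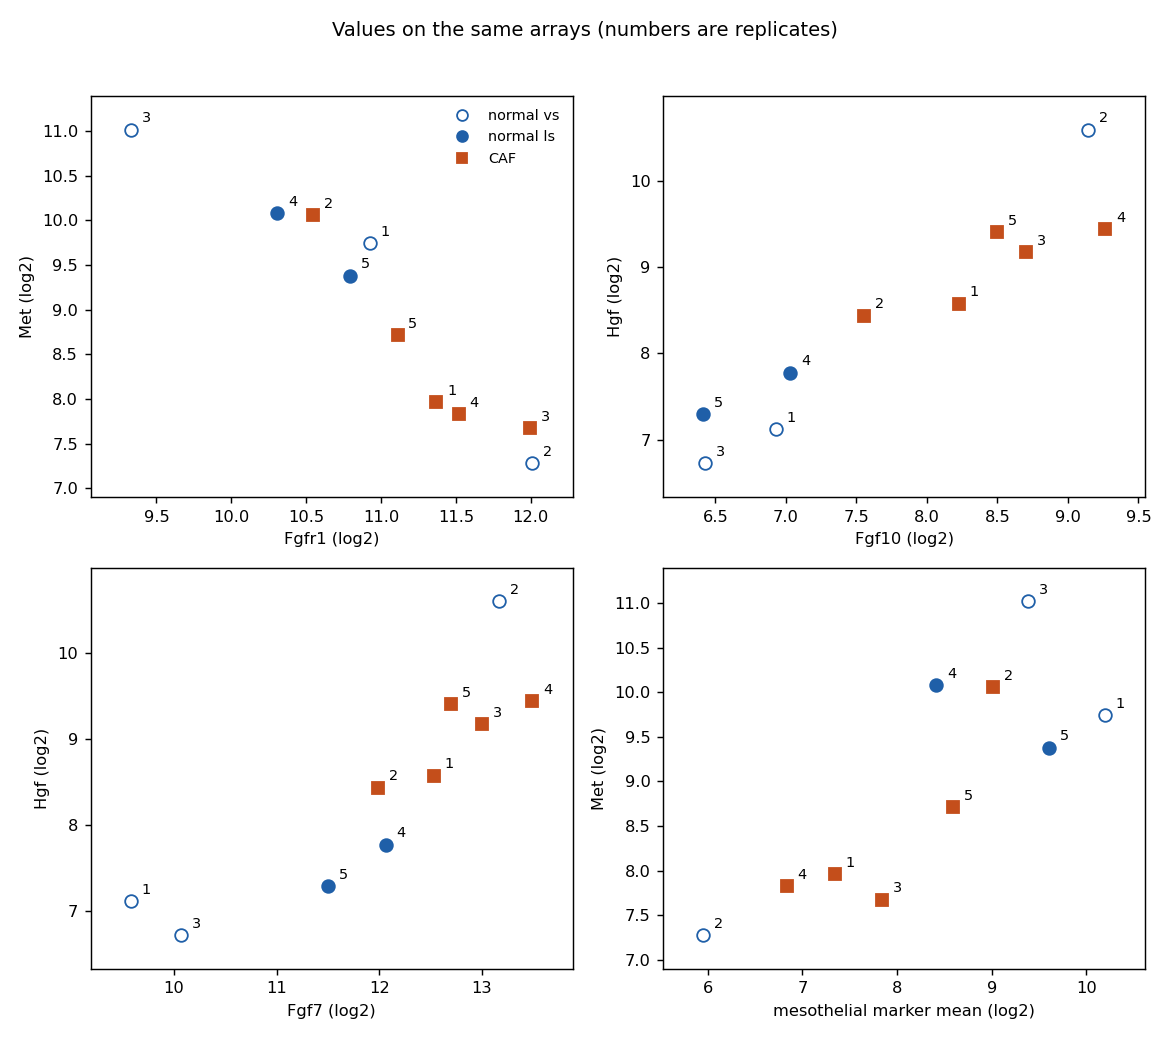
Log2 values of pairs of measures on the same arrays, with 1 point per array, the first measure on the x axis and the second on the y axis. Open circles are vs normal arrays, filled circles ls normal arrays, squares CAF arrays and numbers the replicates. Met falls as Fgfr1 rises, Hgf rises with Fgf10 and with Fgf7, and Met is higher on arrays with more mesothelial marker signal, with normal replicate 2 at or near one end of each panel.

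Mesothelial markers moved with 5 of the 8 genes. The mesothelial mean, over Msln, Upk3b, Upk1b, Wt1, Lrrn4, Muc16 and Krt19, was 10.20, 5.95, 9.38, 8.41 and 9.60 on normal replicates 1 to 5 and 7.34, 9.02, 7.84, 6.83 and 8.59 on CAF replicates 1 to 5. It went with Met (r = 0.814, permutation p = 0.005, adjusted 0.01; rho = 0.721, p = 0.023), with r = 0.795 without normal replicates 1 and 2, and with Fgfr2 (r = 0.811, permutation p = 0.0048, adjusted 0.01; rho = 0.867, p = 0.0022), with r = 0.732. It went against Fgf7 (r = -0.838, permutation p = 0.0024, adjusted 0.0078; rho = -0.915, p = 0.00047), with r = -0.804, against Fgf10 (r = -0.857, permutation p = 0.0018, adjusted 0.0078; rho = -0.867, p = 0.0023), with r = -0.856, and against Hgf (r = -0.862, permutation p = 0.0017, adjusted 0.0078; rho = -0.855, p = 0.0028), with r = -0.727 without the same arrays. The relations with Fgfr1 (r = -0.673, adjusted permutation p = 0.0531), Fgf2 (r = 0.496, adjusted permutation p = 0.227) and Fgf18 (r = 0.411, adjusted permutation p = 0.365) did not pass. Among the 7 ls arrays Fgf7 (r = -0.872, exact permutation p = 0.0113) and Fgf10 (r = -0.823, exact permutation p = 0.0246) kept an unadjusted p under 0.05. Met (r = 0.755, exact permutation p = 0.0599), Fgfr2 (r = 0.730, exact permutation p = 0.0573) and Hgf (r = -0.662, exact permutation p = 0.109) did not. The part of mesothelial cells in these values was not tested, and in bulk samples fewer cells of a type and less RNA per cell cannot be told apart.

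Of the mesothelial markers, the brightest were Upk1b, Upk3b and Wt1. Upk3b, a membrane protein of mesothelium and urothelium, ran from 5.35 to 14.03 on the normal arrays and from 7.09 to 10.99 in CAF. Of the markers, 0 of 7 passed between the groups in limma (1 lower at an unadjusted p under 0.05), and 7 of 7 had a negative difference, with a median of -0.40. Differences were positive for 13 of 13 macrophage and monocyte markers (median 0.43, 0 at an unadjusted p under 0.05) and negative for 10 of 12 epithelial markers (median -0.19, 3 lower at an unadjusted p under 0.05). Over all 18193 genes, 7777 differences were positive and 10416 negative. The markers of a list share arrays, so these counts are not of independent values. Epithelial markers, which matter for Met and Fgfr2, had a mean over 12 of 13 listed genes that ran from 6.65 to 7.49 in normal fibroblasts and from 6.41 to 7.23 in CAF. The adhesion gene Epcam was between 8.06 and 8.36 on normal arrays and between 7.56 and 7.94 in CAF (limma adjusted p = 0.0654), and the keratin genes Krt18 and Krt8, also used by mesothelium, ran from 5.67 to 11.35 and from 6.63 to 11.37 over all arrays. The lists for neutrophils (S100a8, Mpo and Elane brightest), lymphocytes (Cd4, Cd3e, Cd8a), endothelium (Egfl7, Kdr, Cldn5), pericytes and smooth muscle (Des, Myh11, Mcam) and mast and erythroid cells (Alas2, Kit, Mcpt4) had 0 members called in limma. At an unadjusted p under 0.05, where 10.5% of all genes were higher and 11.8% lower, 1 of 5 neutrophil markers was lower, 3 of 7 lymphocyte markers were lower, and 1 of 9 endothelial markers was higher and 4 lower. Of the pericyte and smooth muscle markers 2 of 7 were higher, and of the mast and erythroid markers 4 of 5 were lower. Under the median of all gene means were 4 of 5 neutrophil, 7 of 7 lymphocyte and 8 of 9 endothelial markers. So were 5 of 5 mast and erythroid, 3 of 7 pericyte and smooth muscle, 10 of 12 epithelial and 4 of 7 mesothelial markers. Without detection calls, such dim markers cannot be told from background. With dim genes left out, the median difference of all genes was 0.08 rather than -0.04. The neutrophil mean was 10.62 on normal replicate 3 and between 6.53 and 7.59 on the other arrays. Normal replicate 3 also had the lowest Hgf and Fgfr1 and the highest Met and Fgfr2 of all arrays, and the part of these other cell types in the values was not tested.

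The genes whose profiles lay nearest to each of the 8 variable genes were found by the root mean square distance between values centred on each gene's own mean over the 10 arrays. Nearest to Fgf2 was its antisense neighbour Nudt6, at 0.34 log2 units, followed by Chchd10 and Arap2. Fgf7 was nearest to Tnc, the matrix protein tenascin (0.26), then Col12a1 and Lpar1. Fgf10 was nearest to Lpar1, a lysophosphatidic acid receptor (0.26), then Plpp3 and Syt17, and Hgf to Plpp3, a lipid phosphatase (0.33), then Adm and Kcne4. Fgfr1 had Prkg1, the cGMP-dependent kinase (0.24), Rictor and Itgb5 as nearest genes, and Fgfr2 had Crls1, the cardiolipin synthase (0.23), Epha1 and Dennd2d. Met was nearest to Gjb5, a gap junction gene (0.35), Slc9a3r1 and Tmem88, and Fgf18 to Akr1c14 (0.36), Aplp1 and Arhgap44. Of all these neighbours, none passed the test between the groups, with adjusted p-values from 0.101 to 0.865 (limma).

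The rest of the ligand family gave no call. Of the 17 other FGF ligands 0 passed in limma. At an unadjusted p under 0.05, 1 was higher and 2 were lower, against 10.5% and 11.8% of all genes. Their median difference was -0.10, and 16 of the 17 had means under the median of all gene means. The members with the smallest p were Fgf11 (-0.20 ± 0.06, limma adjusted p = 0.122), Fgf4 (-0.27 ± 0.10) and Fgf12 (0.20 ± 0.09). Of 9 other receptors and co-receptors 0 passed (2 higher and 1 lower unadjusted, against the same 10.5% and 11.8%), with a median of -0.02. Fgfbp3, a secreted carrier that releases FGFs from the matrix, had 1.04 ± 0.29 (limma adjusted p = 0.0938). Flrt3, a membrane protein that binds FGF receptors, had 0.94 ± 0.34 (limma adjusted p = 0.153). Its groups did not overlap, as for 2.97% of all genes in that direction. Klb, the co-receptor of endocrine FGFs, had -0.19 ± 0.08.

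Heparan sulfate genes, which supply the sugar chains that FGF and HGF need at the receptor, had 23 of 24 members measured and 0 called in limma. At an unadjusted p under 0.05, 2 were higher and 1 lower, against 10.5% and 11.8% of all genes. Their median was 0.23 and 19 were positive, beside 7777 of 18193 over all genes. Of these 23 genes, 3 had means under the median of all gene means. With dim genes left out, the median was 0.24 for this list and 0.08 over all genes. Gpc3, a glypican core protein, had -2.02 ± 0.75 (limma adjusted p = 0.158), from 10.23 ± 1.46 in normal to 8.21 ± 1.12 in CAF, with -2.65 ± 0.99 from ls and -1.61 ± 0.86 from vs normal arrays. Among the other glypicans measured, Gpc1 had 0.39 ± 0.17 and Gpc2, under the median of gene means, 0.24 ± 0.08. Gpc4 had 0.89 ± 0.43 and Gpc6 0.35 ± 0.39, both named after their values were seen.

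HGF has its own set of activators, inhibitors and partners, of which 16 of 17 were measured and 0 called in limma, with a median of -0.08. At an unadjusted p under 0.05, 2 were higher and 1 lower, against 10.5% and 11.8% of all genes. Cd44, a hyaluronan receptor that can present HGF to Met, had 0.85 ± 0.23 (limma adjusted p = 0.0887), from 12.88 ± 0.53 to 13.73 ± 0.17, and its groups did not overlap. Cd44 passed against the vs normal arrays alone (1.13 ± 0.21, limma adjusted p = 0.0376) and not against the ls ones (0.43 ± 0.23, limma adjusted p = 0.395). Plxnb1, a semaphorin receptor that associates with Met, had -0.44 ± 0.12 (limma adjusted p = 0.0949), also without overlap. Over all genes, 2.97% were higher and 4.19% lower without overlap, and both Cd44 and Plxnb1 were named for their small p. Plau, the urokinase protease, which can cut the HGF precursor, had 0.84 ± 0.31 (limma adjusted p = 0.160).

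Downstream of the receptors, 15 of 21 relay genes and 16 of 17 feedback and target genes were measured, and 0 of either list passed in limma. The relay list had 5 of 15 higher and 0 lower at an unadjusted p under 0.05 (10.5% and 11.8% of all genes), a median of 0.15 and 11 positive members. Cbl, the ubiquitin ligase that turns over active receptors, had 0.40 ± 0.10 (limma adjusted p = 0.0810), the phosphatase Ptpn11 0.53 ± 0.16, the exchange factor Sos2 0.61 ± 0.20 and the adaptor Frs3 -0.16 ± 0.12. The feedback and target list had 4 of 16 higher and 0 lower by the same measure (10.5% and 11.8% of all genes), a median of 0.40 and 13 positive members. Spred3, an inhibitor of RAS-MAPK signalling, had 0.65 ± 0.18 and Phlda1, a growth factor response gene, 0.65 ± 0.18 (limma adjusted p = 0.0930 for both). Spry4, a feedback inhibitor of FGF receptors, had 0.35 ± 0.13 and Spred1 -0.13 ± 0.15. Both lists were bright, with 0 of 15 relay and 1 of 16 feedback and target genes under the median of all gene means. Over all genes, dim and bright, 7777 of 18193 had a positive difference. With dim genes left out, the median was 0.08 over all genes, 0.15 for the relay list and 0.45 for the feedback and target list. After a further quantile normalisation these medians were -0.03, 0.10 and 0.28 in the same order. The feedback and target genes also answer to other growth factor receptors.

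**Figure D4:**
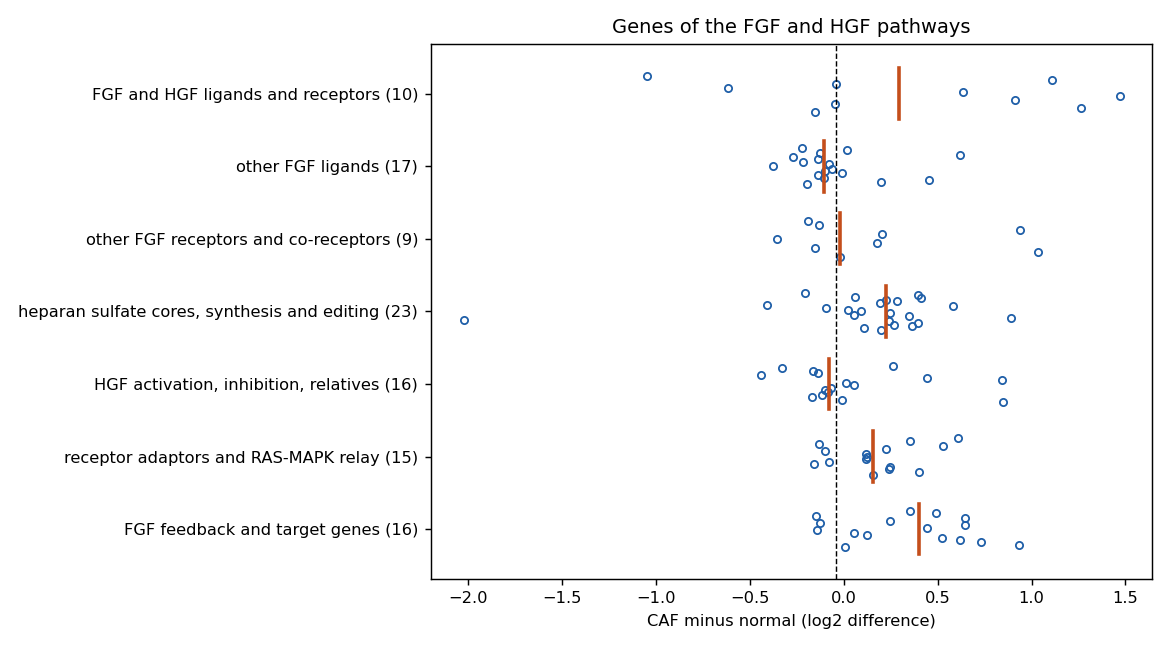
Difference between CAF and normal fibroblasts on the x axis (log2, CAF minus normal) for every measured gene of the 10 ligands and receptors and of 6 lists of pathway genes on the y axis, with the number measured in parentheses. Circles are genes, thick bars list medians, and the dashed line the median of all genes, -0.04. The feedback and target genes have the highest median, 0.40, and none of the genes drawn passed the test.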

How the data were processed

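The deposited values are log2 expression, made by the authors per the submitters' processing notes with RMA in Affymetrix Expression Console, with limma among the tools and no versions given in the sources used here. RMA corrects background, normalises quantiles across arrays and summarises probe sets, so values are relative rather than absolute amounts and have no detection call. Depth does not apply; 5 arrays per group limit the precision. Of 45101 probe sets, 64 controls were left out. The platform table gave 34945 probe sets 1 symbol, 932 several and 9160 none, and symbols were updated through Entrez numbers (34741 found) to GRCm38.p6 names. The brightest probe set per gene was kept (18193 genes, 9010 with more than 1).

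Groups and replicate numbers came from the titles. The test was lmFit and eBayes of limma 3.58.1 (R 4.3.3), with group as the only term, adjusted over all genes; the code was tested on simulated data. Intervals are 95% from the moderated fit. Named genes were the 10 ligands and receptors, the 3 smallest p of each pathway list with the best in the other direction, the 3 brightest of each marker list, every called pathway gene (none was), and the 3 nearest profiles of genes with an SD of at least 0.5, passing over clone names and predicted genes. The genes and lists were chosen with earlier results of these data known. Other settings tried were each array left out, the label prefix, the replicate block, scaling, probe set choice, a filter on dim genes and other variance models.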

Additional observations from a re-analysis of the deposited data

Results flagged for a closer look

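Of 20 groups of 5 arrays looked at (10 genes in 2 groups), 2 had an array far from the others, both normal replicate 2. Chance gives about 1 in 20 such groups. For Fgf10 its value of 9.14 stood off by 0.775 of the range of the normal group, and for Hgf its value of 10.60 stood off by 0.728 of that range, both above the critical value of 0.71 for 5 samples.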

How the results depend on the processing

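The differences of Fgf1, Fgf2, Fgf7, Fgf10, Fgfr1, Fgfr2, Hgf and Met kept their direction without any 1 array, against either kind of normal array and under other scaling, probe set averaging and array weights. The replicate block, the filter on dim genes, single probe sets and the other variance models leave a difference as it is by construction. The number of the 10 genes called was 0 to 2 without 1 array and 1 (Fgf10, 1.67) with array weights. Without 1 array Fgf10 ranged from 1.06 to 1.75 and Hgf from 0.81 to 1.78. Fgf18 changed sign (-0.24 to 0.44 without 1 array, 0.18 with the prefix as a term, 0.10 with array weights), as did Fgfr3 (-0.10 to 0.057 without 1 array, 0.029 with the prefix, 4.6e-05 after median centring). The cause was not tested. Limma called 137 genes in all, 166 without normal replicate 2, 153 without CAF replicate 2, 0 to 63 without any other single array (0 without normal replicate 3 or CAF replicates 1, 3 or 5; 3003 to 4050 at an unadjusted p under 0.05) and 0 with the label prefix as a term (2649 unadjusted). It called 0 with the replicate block (3017 unadjusted), which changed no call of the 10 genes. Deviations of same-numbered arrays from their group means had r from -0.53 to 0.34. The labels do not say whether the numbers pair arrays. These correlations cannot settle it, since CAF and some normal arrays also differ in label prefix. Limma called 285 against the vs normal arrays, 285 after median centring, 605 of all probe sets singly, 50 with dim genes left out, 46 with a trended robust prior and 1597 with array weights. The filter on dim genes, which removes members, moved the medians of other receptors to 0.19 and of HGF partners to 0.011. It also moved the median of all genes from -0.04 to 0.08. Of 21 relations over arrays that passed, 15 had an unadjusted permutation p under 0.05 with the 2 farthest arrays left out, 11 among the ls arrays alone and 20 without normal replicate 2. These settings were chosen after seeing the data. No detection call exists, so dim genes such as Fgf1 and Fgfr3 cannot be told from background.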
